A study of Mus musculus with 20 samples.

Results

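The Serinc genes Serinc1, Serinc2, Serinc3 and Serinc5 were examined in axons and in somatodendritic fractions of cultured mouse motoneurons with and without knockdown of Tdp-43. The 4 genes were taken by symbol from the 39174 genes in the deposited tables. They were picked with results known: the fall of Serinc1 in somatodendritic knockdown libraries is what put the family on the list, so its values in that contrast are given here as a description without a test.

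SERINC proteins span membranes many times and were named serine incorporators because they were first described as aiding the entry of serine into phosphatidylserine and sphingolipids, lipids that are abundant in neuronal membranes. SERINC3 and SERINC5 are better known for lowering the infectivity of retroviruses, and SERINC proteins have been described as scramblases, which let lipids move between the leaflets of a membrane. Serinc5 has also been described in myelin-forming cells.

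Primary motoneurons of CD-1 mice were isolated from spinal cords of mid-gestation embryos, enriched on dishes coated with an antibody to p75, and grown for a week in microfluidic chambers that keep axons apart from cell bodies and dendrites. Control cells, whose library titles read GFP, were transduced with an empty lentiviral vector, and knockdown cells with a lentivirus expressing 1 short hairpin RNA against Tdp-43, chosen from 4 designed ones. There were 4 control and 6 knockdown libraries from each compartment, 20 in all, made by amplifying cDNA of total RNA. The control libraries had been described in an earlier study, and both groups were handled in parallel for sequencing. The labels name no culture or batch, so p-values measure the spread between these libraries only. In bulk libraries of this kind, fewer cells of a type and less RNA per cell cannot be told apart either.

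Values are FPKM, fragments scaled to transcript length and to the mapped fragments of the library. Depth, read from the 95% interval that accompanies each FPKM, ranged down to 0.530 of the deepest library among control libraries and from 0.103 to 0.760 among knockdown libraries. Of 8 motoneuron markers, 7 were found in the tables, and Mnx1, Isl2 and Chat were listed at 0 in all 20 libraries, with summed motoneuron markers at 1.99 to 5.51 FPKM in somatodendritic control libraries. The medians of 5 general neuronal genes, chosen after their values were seen, ran from 89.7 FPKM for Nefl through Snap25, Map2 and Stmn2 to 709 FPKM for Tubb3 in the same 4 libraries, and astrocyte and radial glia markers summed to 269 to 352 FPKM. The targeted gene Tardbp fell in the somatodendritic compartment, from 19.0, 29.6, 29.9 and 30.8 FPKM in control to at most 8.54 FPKM in knockdown libraries, a log2 change of -3.06 (SE 0.57, adjusted p = 0.0228, limma), lower in 6 of 6 libraries. Leaving out any 1 of the 4 control libraries raised that adjusted p to between 0.0617 and 0.0955, and the call was also lost with the replicate number as a block (-2.91, adjusted p = 0.0991) and with a pseudocount of 0.1 (-3.92, adjusted p = 0.128). In axons Tardbp spanned 1.21 to 33.2 FPKM in knockdown and 13.4 to 32.3 FPKM in control libraries (log2 change -1.71, SE 0.63, adjusted p = 0.427, limma), and the axonal library labelled knockdown replicate 1 was at 33.2 FPKM, above every control. Without that library the axonal change of Tardbp was -2.0 (adjusted p = 0.277, limma), and the values of the Serinc genes are also given without it.

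The genes lie on 4 chromosomes of the mouse build GRCm38, and their spans are given here as in GENCODE M21. Serinc1 (ENSMUSG00000019877) is at chr10:57515774-57532530 on the minus strand. Serinc3 (ENSMUSG00000017707) is at chr2:163623272-163645131 on the minus strand. Serinc5 (ENSMUSG00000021703) is at chr13:92611091-92711947 on the plus strand, and Serinc2 (ENSMUSG00000023232) is at chr4:130253495-130279205 on the minus strand. Serinc3 overlaps an antisense gene, 0610039K10Rik, whose mean stayed under 1 FPKM in every group, and no other gene overlaps Serinc1, Serinc2 or Serinc5. Serinc4, the remaining family member, had a mean of at most 0.883 FPKM in any group and shares its locus with Serf2 and Hypk, so it was not analysed further.

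TDP-43 is known to bind stretches of alternating U and G in RNA, so the mature transcripts were searched for TGTGTG (U written as T, transcript strand only), counting a longer run of alternating bases once. The longest protein coding transcript in GENCODE M21 held 3 such runs in Serinc1, all coding, 3 in Serinc3 (1 coding, 2 in the 3′ untranslated region), 5 in Serinc5 (4 coding, 1 in the 3′ untranslated region) and 1 coding run in Serinc2. These sites are shown because they are the longest runs of the family and, for Serinc3, the runs lying in the untranslated region. The run, counted from its first T, is in capitals within 30 bases of transcript, so a g just before it is not marked.
Serinc1, coding exon, chr10:57519698-57519727, minus strand: tcttttcctgcTGTGTGTGTtttattcgag
Serinc5, coding exon, chr13:92708056-92708085, plus strand: ctcctgctggaTGTGTGTGctgctgtacct
Serinc3, 3′ untranslated region, chr2:163624719-163624748, minus strand: tcttgttgtgagTGTGTGaaagtcaaaggc
Serinc3, 3′ untranslated region, chr2:163623404-163623433, minus strand: cttaagcttaacTGTGTGagacaaatacct
Among transcripts of 80% to 120% of its length, 76.8% held at least 1 run and 23.7% held as many as Serinc1 or more. The shares with at least as many runs were 34.0% for Serinc3, 21.5% for Serinc5 and 58.0% for Serinc2. A match of these letters is a description of the sequence, and binding was not analysed here.

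Serinc1 was the most abundant member, followed by Serinc3. Serinc1 exceeded Serinc3 in 20 of 20 libraries, and Serinc3 exceeded both Serinc5 and Serinc2 in 20 of 20. Serinc5 exceeded Serinc2 in 15 of 20, so the order of these low members was not fixed. By mean FPKM in somatodendritic control libraries Serinc1 ranked 129 of 17937 genes above 0, Serinc3 1107, Serinc5 7119 and Serinc2 11455. In the other groups Serinc1 ranked 335 in control axons, 368 in knockdown axons and 485 in somatodendritic knockdown libraries, while Serinc3 ranked between 911 and 1255 in all 4 groups.

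**Figure D1:**
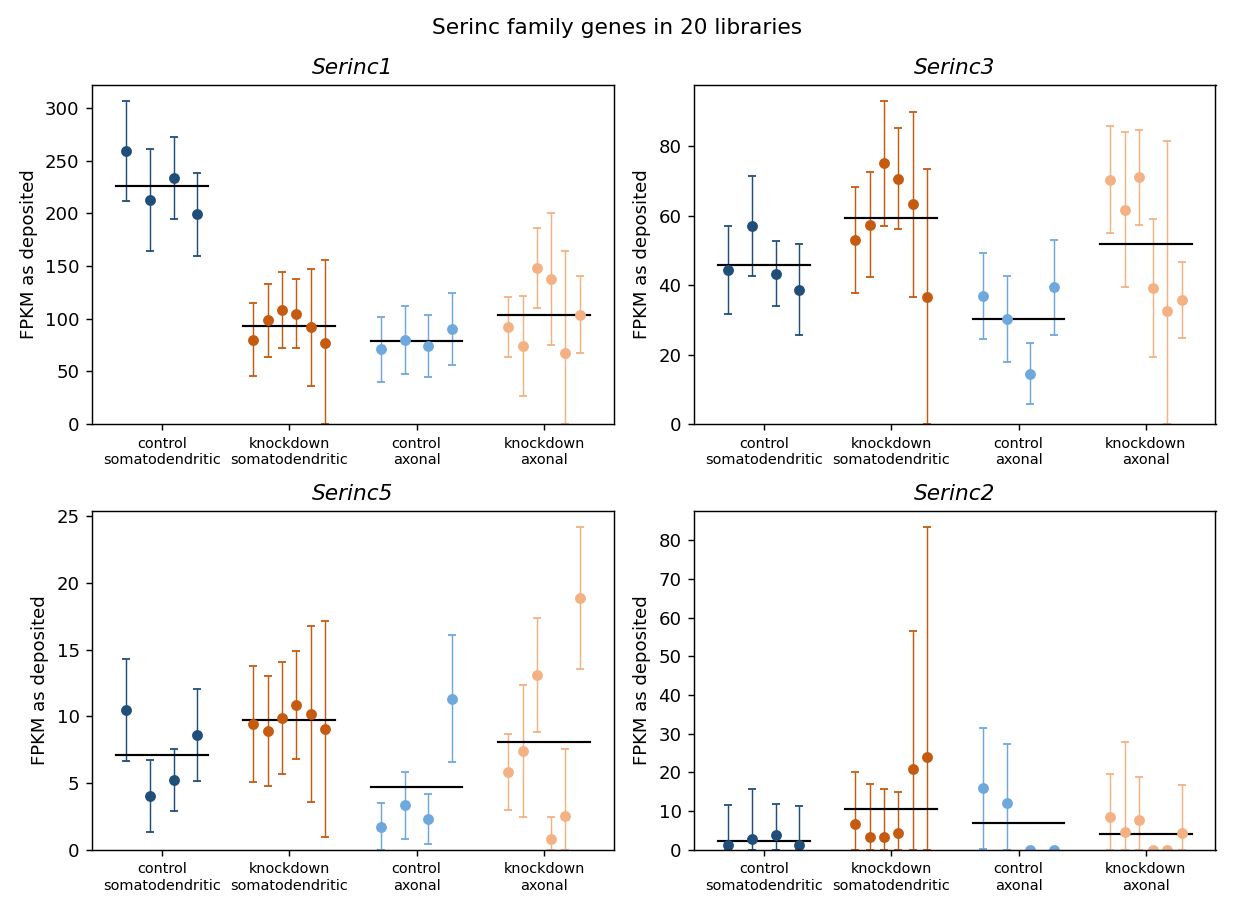
FPKM as deposited of each Serinc gene (vertical axis, own scale per gene) in every library of the 4 groups. Points are libraries, bars the deposited 95% interval of each value and horizontal lines group means; the 4 somatodendritic control libraries of Serinc1, at 199 to 259 FPKM, lie above every other library.

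In somatodendritic control libraries Serinc1 was at 199, 213, 233 and 259 FPKM. In somatodendritic knockdown libraries it was at 76.8, 79.8, 91.6, 98.5, 105 and 108 FPKM. The groups did not overlap: the lowest control lay above the highest knockdown library. The group mean was 226 ± 26.3 FPKM (SD, n = 4) in control and 93.2 ± 12.9 FPKM (SD, n = 6) in knockdown libraries, or 41.3% of control, and 35.5% after scaling the libraries by the median of ratios. On the log2(scaled FPKM + 1) scale the change was -1.48 (SE 0.14), against a median of -0.13 over all 13762 genes tested there. These are the values that chose the gene. In that contrast 0.974% of genes passed an adjusted p of 0.05 and 3.6% had lower knockdown values without overlap, with 554 genes falling further than Serinc1. Among the 411 genes at 100 or more scaled FPKM in control, 21 fell further. Serinc1 entered that set by its control mean of 242 scaled FPKM, against 85.9 in knockdown libraries, so this rank is a description as well.

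Leaving out each library in turn gave changes of -1.56 to -1.41 for Serinc1, and FPKM without scaling gave -1.27. These values chose the gene, so this range is a description and adds no support for the fall. The Serinc1 values rested on 77.6 to 144 implied fragments in control libraries of the somatodendritic fraction and 3.8 to 40.5 in its knockdown libraries, and the shallowest knockdown library had a 95% interval of 0 to 156 FPKM. Beside the fall of Serinc1, summed astrocyte and radial glia markers spanned 190 to 339 FPKM in somatodendritic knockdown and 269 to 352 FPKM in control libraries. None of these 6 markers was at 0 throughout. Summed oligodendrocyte lineage markers spanned 52.1 to 121 FPKM in knockdown and 56.1 to 106 FPKM in control libraries. Both sums overlapped between the groups. The median astrocyte and radial glia sum was 264 FPKM in knockdown and 301 FPKM in control libraries, within which Fabp7 had the lower median in knockdown (91.1 against 161 FPKM) and Slc1a3 (114 against 84.8 FPKM) and Gfap (21.3 against 9.09 FPKM) the higher. Of 5 general neuronal genes, chosen after their values were seen, Nefl was lower without overlap, at 35.3 to 54.1 FPKM in knockdown and 86.7 to 115 FPKM in control libraries, and Map2 higher, at 443 to 589 against 276 to 392 FPKM. Tubb3, Stmn2 and Snap25 overlapped. The part of cell composition in the fall of Serinc1 was not tested.

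The other members did not share the fall. Serinc3 was at 38.7, 43.3, 44.4 and 56.9 FPKM in somatodendritic control and at 36.6 to 75.0 FPKM (median 60.4) in knockdown libraries. These ranges overlapped, and the log2 change was 0.13 (SE 0.20). Serinc5 was at 4.05, 5.22, 8.61 and 10.5 FPKM in control and within the narrow range of 8.90 to 10.8 FPKM in all 6 knockdown libraries, a log2 change of 0.29 (SE 0.29). Serinc2 was at 1.26, 1.28, 2.83 and 3.70 FPKM in control and at 3.40 to 24 FPKM (median 5.43) in knockdown libraries, a log2 change of 1.32 (SE 0.58). The 2 highest Serinc2 values, 21 and 24 FPKM, came from the 2 shallowest somatodendritic libraries, and no somatodendritic value of Serinc2 rested on more than 1.39 implied fragments. Its change was 0.61 among libraries of at least 0.5 relative depth and 0.60 with the replicate number as a block. The whole family was part of the choice, so no test is given for these 3 genes in this contrast.

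The question whether the axonal transcripts moved with Tdp-43 depletion was addressed in libraries that played no part in choosing the genes. Serinc1 was at 70.8, 73.8, 79.5 and 90.1 FPKM in control axons and at 66.9 to 148 FPKM (median 97.9) in knockdown axons. The groups overlapped, and the difference was not past the threshold (log2 change -0.18, SE 0.31, 95% interval -0.84 to 0.49, adjusted p = 0.905, limma), beside a median of -0.17 over all 13958 genes. The sign depended on the scaling, since the mean was 132% of control in FPKM as deposited (log2 change 0.34) and 91.1% after scaling. Without the library labelled knockdown replicate 1 the change was -0.11 (adjusted p = 0.941).

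Serinc3 was at 14.5, 30.2, 36.9 and 39.4 FPKM in control axons and at 32.5 to 71.0 FPKM (median 50.5) in knockdown axons. Its log2 change was 0.27 (SE 0.38, 95% interval -0.54 to 1.07, adjusted p = 0.876, limma). Without control replicate 3, the library at 14.5 FPKM, it was -0.0135. Serinc5 was at 1.73, 2.32, 3.32 and 11.3 FPKM in control axons and spread from 0.823 to 18.9 FPKM in knockdown axons (log2 change 0.13, SE 0.71, 95% interval -1.37 to 1.63, adjusted p = 0.97, limma). Serinc2 was listed at 0 in 2 of 4 control and 2 of 6 knockdown axonal libraries and reached 15.9 FPKM in the former and 8.45 in the latter (log2 change -0.36, SE 0.98, adjusted p = 0.934, limma). Without the library labelled knockdown replicate 1 the changes were 0.21 for Serinc3, 0.18 for Serinc5 and -0.58 for Serinc2, at adjusted p of 0.896, 0.955 and 0.887 (limma). None of the 4 members was called in axons, where 0.401% of all genes were (2 higher and 54 lower). The axonal intervals of Serinc5 and Serinc2 include changes of more than 2-fold in either direction. For Serinc5 libraries of 1 group differed beyond their own deposited intervals, since control replicate 4 (6.57 to 16.1 FPKM) lay above control replicate 1 (0 to 3.47 FPKM).

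**Figure D2:**
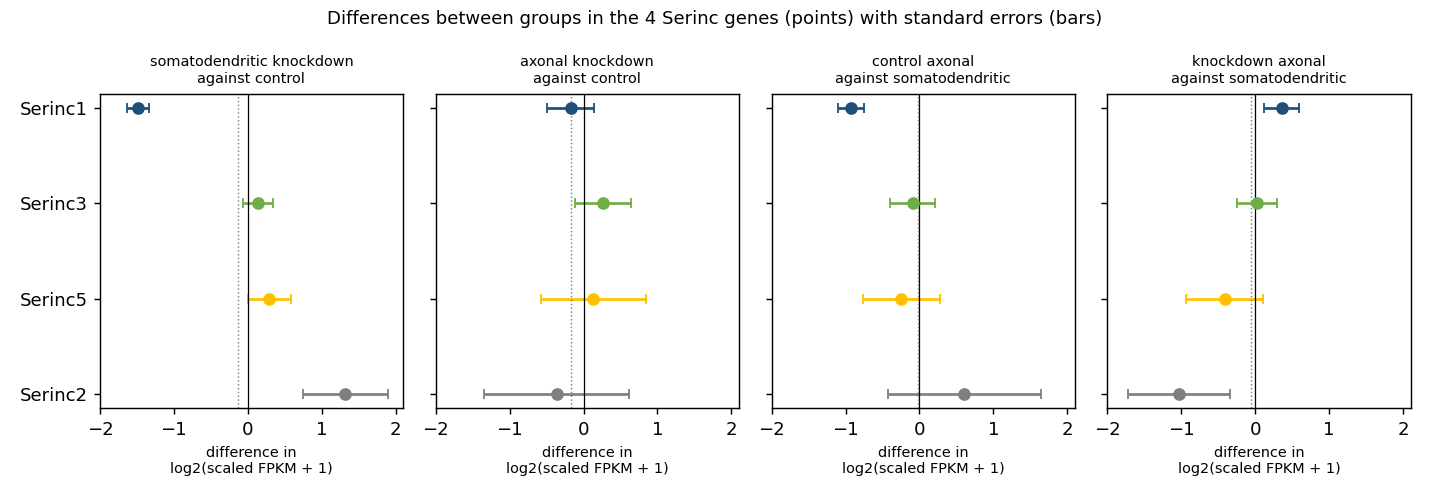
Difference in log2(scaled FPKM + 1) between groups (horizontal axis) for each Serinc gene in the 4 comparisons. Points are the fitted differences, bars 1 standard error and dotted lines the median over all genes tested; Serinc1 stands at -1.48 in somatodendritic knockdown and at -0.93 between control axons and control somatodendritic fractions, while its axonal knockdown difference is -0.18.

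In control cultures Serinc1 was lower in axons than in the somatodendritic compartment. With all 20 libraries on a common scale its mean was 110 ± 7.03 FPKM (SD, n = 4) in axons and 211 ± 27.9 FPKM (SD, n = 4) in the somatodendritic compartment, and the groups did not overlap. The log2 difference was -0.93 (SE 0.17), lower in 4 of 4 axonal libraries, and in FPKM as deposited the axonal mean was 34.8% of the somatodendritic one. Other genes differed between the same libraries. Summed fibroblast markers were at 11.9 to 47.9 FPKM in control axons and 1.43 to 11.9 FPKM in the somatodendritic compartment, summed oligodendrocyte lineage markers at 9.40 to 43.7 against 56.1 to 106 FPKM, and the median of Tubb3 was 215 against 709 FPKM as deposited. Their part in the Serinc1 difference was not tested. In this comparison 6.74% of genes were called, 2.56% as lower in axons, and 7.71% were lower without overlap. Leaving out replicate 1, 2 or 3 cut the 928 called genes to 114, 130 and 277, in that order. The 4 somatodendritic control libraries also entered the contrast that chose Serinc1, so this difference is a description of Serinc1 and no test is given. Leaving each replicate out of both groups gave differences of -1.05 to -0.81.

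The other members are described between control compartments in the same way, without a test. Their axonal and somatodendritic values overlapped. The log2 difference, axons minus somatodendritic, was -0.09 (SE 0.31) for Serinc3 and -0.25 (SE 0.52) for Serinc5. For Serinc2 it was 0.61 (SE 1.03).

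In knockdown cultures the Serinc1 levels of the compartments lay close together. On the common scale Serinc1 was at 97.5 ± 25.4 FPKM (SD, n = 6) in knockdown axons and 74.4 ± 9.75 FPKM (SD, n = 6) in the somatodendritic fraction, a log2 difference of 0.36 (SE 0.23) that is given without a test. Ordered by these means, the Serinc1 groups ran from somatodendritic control through control axons (110) and knockdown axons to somatodendritic knockdown. Ranges of scaled values overlapped between control axons (101.1 to 118) and knockdown axons (70.6 to 136) and between knockdown axons and somatodendritic knockdown (61.4 to 87.5), and only somatodendritic control (177 to 244) lay apart from all others. In FPKM as deposited the lower groups changed places, at 104 in knockdown axons, 93.2 in somatodendritic knockdown and 78.6 in control axons. Between knockdown compartments the log2 difference was 0.02 (SE 0.27) for Serinc3, -0.41 (SE 0.52) for Serinc5 and -1.03 (SE 0.69) for Serinc2, with overlapping values. Without replicate 1 of both compartments these were -0.0735, -0.39 and -1.30, and the Serinc1 difference was 0.37. Here, too, no test is given for the members, and 1.42% of all genes were called.

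Shares within the family do not depend on scaling between libraries. Serinc1 supplied 80.3% ± 2.38 (SD, n = 4) of the summed FPKM of the 4 genes in somatodendritic control libraries and 54.0% ± 3.09 (SD, n = 6) in somatodendritic knockdown libraries, ranges of 76.9% to 82.2% and 49.2% to 58.5% that do not overlap and that follow from the values used to choose it. Serinc3 took 16.4% ± 2.89 and 34.0% ± 4.72 of the same sums, and the ratio of Serinc1 to Serinc3 was 5.02 ± 0.91 in control and 1.61 ± 0.26 in knockdown libraries. The summed FPKM of the family was 281 ± 28.0 in the former and 173 ± 21.6 in the latter. In axons Serinc1 supplied 66.4% ± 10.6 (SD, n = 4) in control and 61.8% ± 9.95 (SD, n = 6) in knockdown libraries, a difference of -4.57 percentage points within the spread of the libraries (two-sided exact permutation test over 210 splits, p = 0.495), and of -2.62 points without the library labelled knockdown replicate 1 (p = 0.73, same exact test). Between control compartments the shares differed by -13.9 points, axons minus somatodendritic, with overlapping ranges, and no test is given because the somatodendritic libraries took part in the choice. Control axonal replicate 3, at 81.4%, was the library that lay among the somatodendritic values. That library also had the lowest axonal Serinc3 value, and without it the share differed by 0.449 points between knockdown and control axons.

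**Figure D3:**
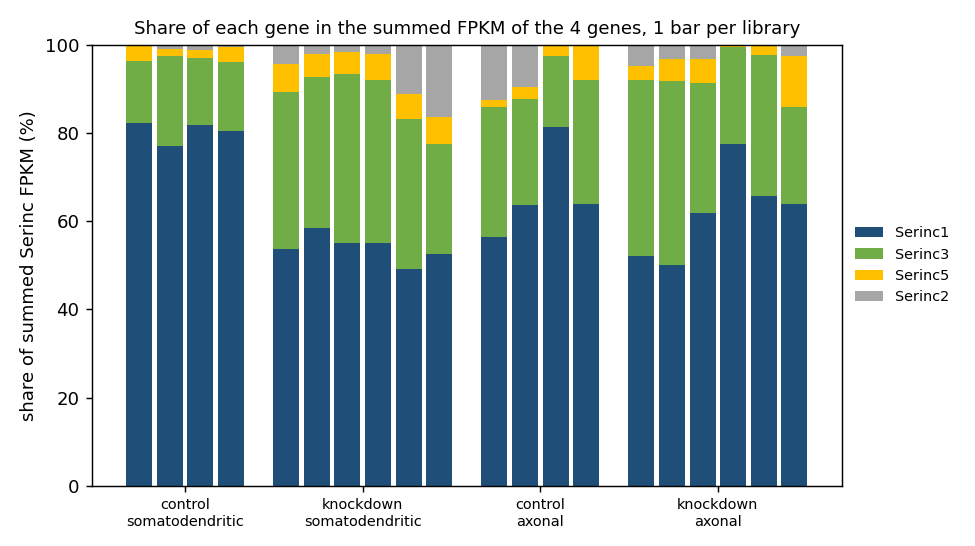
Share of each gene in the summed FPKM of the 4 Serinc genes (vertical axis, percent), 1 bar per library in replicate order within each group. In somatodendritic libraries Serinc1 takes 76.9% to 82.2% of the sum without and 49.2% to 58.5% with knockdown, and in axonal libraries 50.1% to 81.4%.

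Genes that supply serine or use it for membrane lipids were counted from lists drawn up by function, with earlier results of these data known. In axonal knockdown 0 of 12 serine supply genes, 0 of 18 sphingolipid synthesis genes and 0 of 14 phosphatidylserine genes tested passed an adjusted p of 0.05 by limma, and 0 of each list had an unadjusted p under 0.05, as 8.6% of all genes did. Their median log2 changes were 0.01, -0.26 and 0.14, beside -0.17 over all genes. In somatodendritic knockdown 0 of 12, 0 of 16 and 0 of 14 passed by limma, with 1 gene of each list at an unadjusted p under 0.05 (13.8% of all genes) and medians of -0.12, -0.33 and -0.04, beside -0.13 over all genes. Psph, which makes serine from phosphoserine, had the largest fitted fall of its list there (-1.52, SE 0.76, adjusted p = 0.406, limma). Among libraries of at least 0.5 relative depth Psph passed, at -2.50 (adjusted p = 0.0338, limma), the 1 list gene to do so there, while the other alternatives with all libraries gave adjusted p of 0.0664 to 0.499. Sptssa, a small subunit of serine palmitoyltransferase, which joins serine to a fatty acid, had that of the sphingolipid list (-0.93, SE 0.30, adjusted p = 0.173, limma). Pisd, which turns phosphatidylserine into phosphatidylethanolamine, stood at -0.90 (SE 0.61, adjusted p = 0.571, limma). The highest values of the 3 lists in that comparison were 0.83 (SE 0.86, adjusted p = 0.734) for Slc7a10, a carrier of small neutral amino acids, 0.60 (SE 0.32, adjusted p = 0.447) for the ceramide synthase Cers6 and 0.49 (SE 0.31, adjusted p = 0.538) for Atp11b, a subunit of lipid flippases (limma). The serine list gene at an unadjusted p under 0.05 was Slc38a1, which carries neutral amino acids and was named after its values were seen. It lay higher in knockdown without overlap (0.43, adjusted p = 0.248, limma), as 1.9% of all genes did there. In axonal knockdown Slc38a1 also lay higher without overlap (0.39, adjusted p = 0.774, limma), as 0.451% of all genes did.

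Between control compartments 1 of 12 genes of the serine list and 1 of 14 of the phosphatidylserine list were called, near the 6.74% of all genes, and 4 and 5 had an unadjusted p under 0.05. Shmt2, which interconverts serine and glycine in mitochondria, was higher in axons, at 11.4 to 24.1 FPKM against 6.36 to 12.04 FPKM in the somatodendritic compartment (log2 difference 1.38, SE 0.33, adjusted p = 0.0346, limma, higher in 4 of 4 scaled libraries). Ptdss2, which exchanges the head group of phosphatidylethanolamine for serine, was lower in axons, at 2.47 to 4.46 FPKM against 14.8 to 20.7 FPKM (log2 difference -1.54, SE 0.34, adjusted p = 0.0239, limma, lower in 4 of 4). Both calls were lost when replicate 1, 2 or 3 was left out, with limma adjusted p of 0.097 to 0.182 for Shmt2 and 0.0763 to 0.147 for Ptdss2, and both with the replicate number as a block (adjusted p = 0.0692 each). The Shmt2 call was also lost in FPKM as deposited (0.83, adjusted p = 0.108, limma) and with quantile normalization (adjusted p = 0.0521). Over the alternatives with all replicates the number called ran from 0 to 2 in the serine list, 0 to 3 in the sphingolipid list and 0 to 5 in the phosphatidylserine list, each highest in FPKM as deposited. The sphingolipid list had 0 of 16 called by limma and 4 at an unadjusted p under 0.05, where 22.8% of all genes were. Its largest values were 1.41 for Sgms1, a sphingomyelin synthase, and -1.36 for Ormdl1, an inhibitor of serine palmitoyltransferase, and in FPKM as deposited Ormdl1 passed at -1.68 (adjusted p = 0.0339, limma). In knockdown cultures 0 genes of the 3 lists were called between compartments by limma, with 0, 4 and 2 at an unadjusted p under 0.05 (16.7% of all genes). Of the values there, Cers1, a ceramide synthase typical of neurons, stood at -1.53 (SE 0.52, adjusted p = 0.144, limma). Degs2, a dihydroceramide desaturase, stood at 1.41 (SE 0.54, adjusted p = 0.195), Pisd at 1.25 (SE 0.58, adjusted p = 0.29) and Slc1a5, a neutral amino acid carrier, at 1.22 (SE 0.78, adjusted p = 0.464, limma).

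Other genes whose scaled values ran most like those of Serinc1 over the 20 libraries, among the 5743 genes averaging 10 FPKM or more, were the G protein subunit Gnal (Pearson r = 0.81), the small nuclear RNAs Gm24871 (0.76) and Gm25099 (0.76), the ATP synthase subunit Atp5g3 (0.75) and Mgea5 (0.74), which removes O-linked sugars from proteins. Gnal had a mean of 28.7 FPKM in somatodendritic control, 8.74 in somatodendritic knockdown, 9.99 in control axons and 6.29 in knockdown axons. Gm24871 and Gm25099 had means of 60.8 and 58.7 FPKM in somatodendritic control and 20.2 and 25.7 in control axons, and were listed at 0 in all 12 knockdown libraries. Closest to Serinc3 were Ezh1 (0.82), Mkl1 (0.72) and E430025E21Rik (0.71). Among the members themselves r ran from -0.34 (Serinc1 with Serinc2) to 0.31 (Serinc2 with Serinc3), and Serinc1 with Serinc3 gave -0.11. These libraries fall into 4 groups and differ in depth, so the correlations describe the pattern over groups and carry no test.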

How the data were processed

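The authors deposited FPKM values with a 95% interval for each library, computed, per the labels, with Cufflinks 2.2.1 on GRCm38, with FastQC 0.10.1 also named. Read counts were not analysed here. An implied fragment number was taken from each interval (FPKM ± 2 SD of a count), and relative depth from the 680 genes that exceeded 3 implied fragments throughout. Intervals cover counting error only, since PCR-amplified fragments are not independent molecules. Values at or under 0.001 FPKM count as listed at 0.

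Scaling used median ratios of genes at 1 FPKM or more throughout, within a compartment for knockdown comparisons and over all 20 libraries for compartment comparisons. Genes averaging 1 FPKM or more were tested on log2(scaled FPKM + 1) with limma 3.58.1 (lmFit, eBayes with trend, two-sided) in R 4.3.3, and p-values were adjusted (Benjamini-Hochberg) over every gene in a fit. Fold changes on this scale understate changes of low genes. The fits were tested on simulated data. Tests of the members between compartments, and of the Serinc1 share between control compartments, were planned but are not given, since the somatodendritic libraries entered the contrast that chose the gene. Python 3.11.15, numpy 2.4.6, pandas 2.3.3, scipy 1.17.1 and matplotlib 3.10.9 were used.

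The members and lists were chosen with earlier results of these data known. Named beside the members were, per list and comparison, genes with an adjusted p under 0.05 or otherwise a largest rise or fall, and the 5 genes most like Serinc1 and 3 most like Serinc3. Alternatives were FPKM without scaling, quantile normalization, pseudocounts of 0.1 and 5, no filter or a mean of 10 FPKM, array weights, a replicate block, libraries of at least 0.5 relative depth, other share definitions, and each library left out. Microglia markers summed to 0 to 41.8 FPKM and fibroblast markers to 0 to 81.1 FPKM per library.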

Additional observations from a re-analysis of the deposited data

Results flagged for a closer look

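Serinc5 in control axonal replicate 4 stood apart from its group at 11.3 FPKM, while the other 3 libraries lay between 1.73 and 3.32 FPKM. The gap to the nearest library was 0.834 of the whole range of the group. Of the groups of values examined, 20 in all, chance alone marks about 1 in 20.

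The Serinc2 values lay on opposite sides of control in the compartments, every scaled knockdown library lying above the control mean in the somatodendritic fraction, where the knockdown mean was 401% of control, and below it in axons, where it was 39.2%. The difference between compartments was not tested, and the axonal change of Serinc2 was not past the threshold (log2 change -0.36, SE 0.98, adjusted p = 0.934, limma), with its sign turned without control replicate 1 (0.41) or 2 (0.27). The somatodendritic mean rested on the 2 shallowest libraries, at 18.3 and 24.2 scaled FPKM where the other 4 lay between 3.20 and 5.91, and its log2 change was 1.32 with all libraries and 0.61 at a relative depth of at least 0.5. The control mean in axons came from 2 libraries, at 12.1 and 15.9 FPKM, the other 2 being listed at 0.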

How the results depend on the processing

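For Serinc1, the somatodendritic change was -1.27 in FPKM as deposited and had the same sign under all alternatives. The choice of the gene rested on this fall, so the kept sign adds no support. The axonal knockdown difference of Serinc1 was past the threshold under none of the alternatives, with its sign turned in FPKM as deposited (0.34). The labels do not say whether libraries of the same number share a culture. Correlations of deviations between same-numbered libraries ran from -0.09 to 0.13. Closest to their own number were 1 of 4 libraries between control compartments and 2 of 6 between knockdown compartments. For knockdown against control it was 3 of 4 in each compartment. So few libraries cannot decide whether the numbers pair them, and the replicate block is given as an alternative. With the replicate block the control compartment difference of Serinc1 was -0.93, and leaving out each replicate gave -1.05 to -0.81. Also with the replicate block, 35 genes were called in axonal knockdown, 18 in somatodendritic knockdown, 442 between control and 22 between knockdown compartments, and Serinc5 in axonal knockdown was at -0.0689. Over all genes, axonal knockdown gave 56 calls, 30 with a pseudocount of 0.1, 87 with array weights and 37 to 70 on leaving out a library, the fewest without control replicate 1. Somatodendritic knockdown gave 134 calls, 233 without scaling, 212 with a pseudocount of 5, 432 with array weights and 58 to 198 on leaving out a library. Control compartments gave 928 calls, 2055 without scaling and 114 to 1004 on leaving out a replicate. Knockdown compartments gave 199 calls, 77 with a pseudocount of 0.1, 76 without a filter, 417 with array weights, 78 at a relative depth of at least 0.5 and 5 to 255 on leaving out a replicate, with 5, 17, 39 and 14 without replicates 1, 2, 5 and 6. The percentage of calls that were higher was 3.57, 24.56 without scaling and 1.92 with quantile normalization in axonal knockdown, and in the same order 22.39, 64.38 and 29.5 in somatodendritic knockdown, 62.07, 16.74 and 47.35 between control compartments, and 67.34, 45.06 and 51.7 between knockdown compartments. Without scaling the median of all genes moved to 0.23, 0.04, -0.48 and -0.24 in these comparisons. Serinc2 turned its sign at a pseudocount of 0.1 in axonal knockdown (0.0699) and between control compartments (-0.52), and at the depth limit in axonal knockdown (0.56) and between knockdown compartments (0.59). Between knockdown compartments Serinc3 was at -0.23 without scaling, -0.10 with quantile normalization and -0.0625 at the depth limit, and Serinc5 at 0.31 at the depth limit. At that limit Shmt2 (0.0918), Ormdl1 (-0.15) and Atp11b (0.0159) turned in axonal knockdown and Srr (0.26) between knockdown compartments, and without scaling Tardbp did between control compartments (-0.21). On leaving out libraries, axonal knockdown values ran from -1.05 to 0.41 for Serinc2, -0.0135 to 0.40 for Serinc3, -0.20 to 0.59 for Serinc5 and -0.0129 to 1.12 for Slc7a10, and the share difference from -7.87 to 0.449 points. Between control compartments they ran from -0.34 to 1.53 for Serinc2, -0.31 to 0.17 for Serinc3 and -0.62 to 0.22 for Serinc5, and between knockdown compartments from -0.10 to 0.14 for Serinc3. The cause of these shifts was not tested. Depth limits Serinc2, whose axonal values rested on at most 4.09 implied fragments.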
